A study of Mus musculus with 24 samples.

Results

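The data described here are the RNA profiles of unstimulated mouse embryonic stem cells (ESCs) with and without BAP1, before any retinoic acid (RA) was added. They comprise 4 of the 24 libraries of the series: 2 replicates of BAP1-AID ESCs without indole-3-acetic acid (−IAA) and 2 with it (+IAA), chosen by their labels as the libraries of this line at 0 h of RA. In BAP1-AID ESCs the C-terminal end of BAP1 is fused to an HA-AID tag, and the cells stably overexpress TIR1, the plant adaptor through which auxin marks a tagged protein for the proteasome. Both arms therefore share the tag and TIR1, and they differ in the IAA. It was dissolved in ethanol and, per the study, given for 2 h ahead of the RA time course. The other 20 libraries are BAP1-AID ESCs given RA for 3 h or 6 h and UTX-AID ESCs, a line with the tag on the histone demethylase UTX, at 0 h, 3 h and 6 h, each with and without IAA and with 2 replicates. All cells were grown in serum with leukemia inhibitory factor on gelatin, and the RA cultures were kept without this factor. The labels name a single line for each tagged protein, no vehicle was stated for the −IAA cells, and nothing says that replicates were separate cultures, so p-values measure the spread between these libraries, which may be technical.

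BAP1 is the catalytic subunit of PR-DUB, the deubiquitinase that takes ubiquitin off histone H2A, the mark that Polycomb repressive complex 1 (PRC1) places on chromatin. ASXL proteins activate it, and FOXK proteins, OGT, HCFC1 and KDM1B are among its partners. The mark stands on the silent developmental genes of ESCs together with methylation of histone H3 by PRC2, and at lower density across most of the genome. The comparison of the arms asks which transcripts differ when BAP1 is removed from cells that have received no signal to differentiate.

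The tag was placed where the reading frame of Bap1 ends. The last codons of Bap1 are shown to locate it, with the stop codon in capitals (GRCm39, also called mm39):

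Bap1, chr14:30980764-30980796, + strand: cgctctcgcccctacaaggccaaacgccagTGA

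The Bap1 transcript (ENSMUSG00000021901, chr14:30973011-30984932, + strand) stood at 102 and 102 CPM (depth-scaled estimated counts, on the usual CPM scale) in the −IAA libraries and at 99.97 and 96.3 CPM in the +IAA libraries. Its level differed by less than the error, with a log2 fold change of −0.06 ± 0.07 (SE) between the arms and an adjusted p of 0.635 (0.04 and 0.824 with the correction for base composition and length described below; quasi-likelihood test of edgeR, adjusted by Benjamini-Hochberg over all genes tested, as is every adjusted p below). The degron removes protein and not RNA, so this value does not check the depletion itself. Phf7 and Dnah1 overlap the ends of Bap1 from the opposite strand, and without a stated strand setting their reads cannot be separated from those of Bap1.

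The 4 libraries held between 49851949 and 52740738 estimated counts, and replicates correlated across genes at 0.984 and 0.985 (Pearson, log2 of count plus 1). All 6 ESC markers were above 1 CPM in every library. Their summed level was 2560 to 2613 CPM without IAA and 2322 to 2334 CPM with it. The median log2 fold change of these ESC markers was −0.21, and −0.03 with the correction described below. The 7 fibroblast markers summed to 15.1 to 19.03 and 14.2 to 16.6 CPM, and Postn was at 0 in all 4. Markers of primitive endoderm (8 genes, 53.8 to 63.1 and 62.0 to 62.5 CPM), trophoblast (7 genes, 24.2 to 25.7 and 21.3 to 27.5 CPM) and neural cells (6 genes, 120.4 to 133 and 123 to 129 CPM) overlapped between the arms. In RNA from whole cultures, fewer cells of a type and less RNA per cell cannot be told apart.

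The arms differed by a trend across the transcriptome with the base composition of the transcript. Within a library, the Spearman correlation of a gene's deviation from its mean over the line with its GC content was 0.409 and 0.409 in the −IAA libraries but −0.351 and −0.344 in the +IAA libraries. The fold change between the arms accordingly fell with GC content (Spearman −0.42 across 15168 genes, which are not independent replicates and share their 4 libraries) and rose with transcript length (0.24). After RA the arms of BAP1-AID showed −0.39 (3 h) and −0.42 (6 h), whereas the arms of UTX-AID at 0 h showed −0.01. In the lowest of 5 equal GC bins (29.6% to 44.8%) the median log2 fold change was 0.39, and in the highest (56.1% to 78.9%) it was −0.16. No label gives a batch for library preparation or sequencing, so a technical origin of this trend and an effect of the depletion cannot be told apart. Calls, lists and most genes are therefore given both without and with a correction that removes, per library, a smooth trend of log2 CPM on GC content and on transcript length, and a value given alone is without it. With the correction, the medians of the 5 bins lay between −0.01 and 0.02, and the correlations were 0.00085 with GC content and 0.02 with length.

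**Figure D1:**
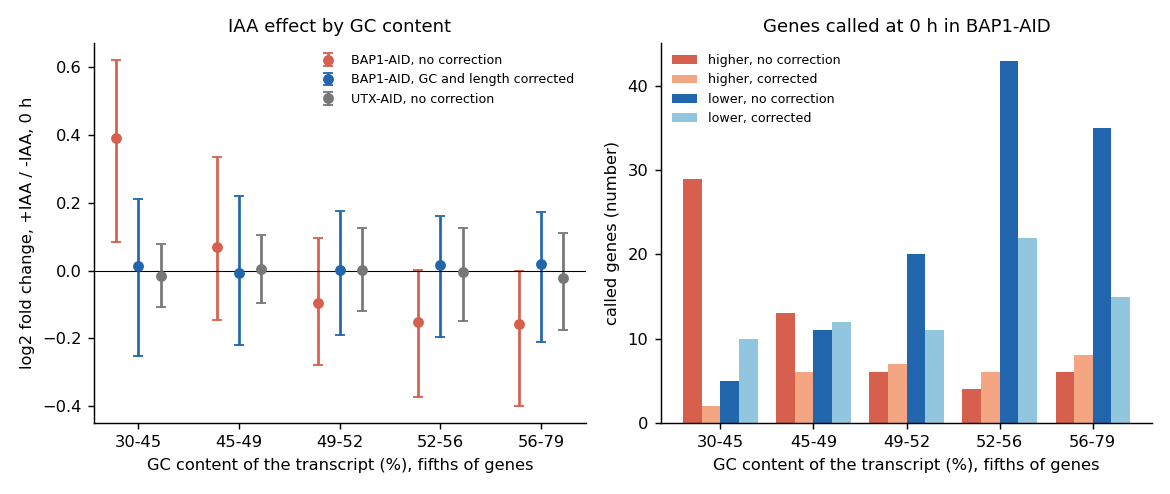
Left, median log2 fold change between the +IAA and −IAA libraries at 0 h in 5 equal bins of genes by GC content of the transcript (points; bars span the middle 50% of genes), in BAP1-AID without and with the correction and in UTX-AID. Right, number of genes called in each bin; without the correction 29 of the genes called higher lay in the lowest GC bin against 2 with it.

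A gene was called when its adjusted p was below 0.05 and its log2 fold change was above 1 or below −1. Without the correction, 62 genes were called higher with IAA and 118 lower, which is 0.395% and 0.752% of the 15695 tested and 1.15% in all. With it, 29 were called higher and 70 lower, or 0.191% and 0.461% of the 15168 tested and 0.653% in all. By adjusted p alone the effects were far more numerous and mostly small: 1850 genes (11.8%) were higher and 1046 (6.66%) lower without the correction, and 849 (5.6%) and 740 (4.88%) with it. The lower calls gathered at high GC content before the correction, with 43 and 35 of them in the top 2 bins and 5 in the lowest. The correction reduced these to 22 and 15, and raised the lowest bin to 10. Leaving out the −IAA library of replicate 2 raised the higher calls without the correction to 106. The lower calls with the correction dropped to 31 without the +IAA library of replicate 2 and to 37 without the −IAA library of replicate 1.

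Of the 180 genes called without the correction, 83 were called in both fits, 21 higher and 62 lower, and all 83 kept their direction. A further 89 lost the call with the correction, 37 higher and 52 lower; all 89 kept their sign, and 29 of them still had an adjusted p below 0.05. The remaining 8 had no GC value and were not tested in the corrected fit, while 16 genes, 8 in each direction, were called only with the correction. The genes called higher only without it had a median GC content of 41.5% and a median transcript of 4351 bases. Those called higher in both fits had 50.5% and 2697 bases, close to the median of 50.5% for all genes tested. The genes called lower only without the correction had 55.1%, and those called lower in both fits had 52.8%. Most of the genes called in both fits were weakly expressed: in the arm where they were higher, their median level was 3.35 CPM for the higher and 2.30 CPM for the lower genes. Leaving out any of the 4 libraries kept 48 to 59 of the 83 called without the correction and 26 to 51 with it.

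**Figure D2:**
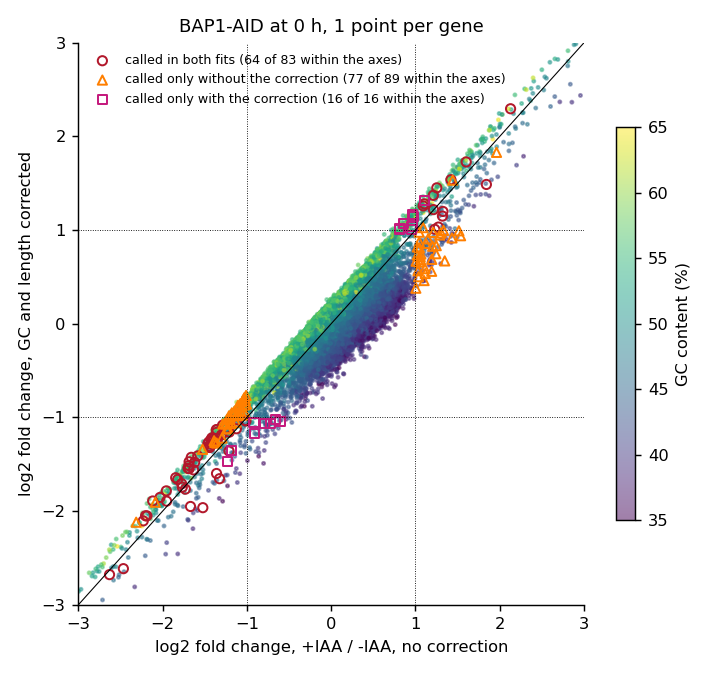
Log2 fold change between the arms at 0 h without the correction (x axis) and with it (y axis), 1 point per gene, coloured by GC content and drawn from −3 to 3. Outlined symbols are called genes, dotted lines mark the call threshold of 1, and genes of low GC content lie below the diagonal, where most genes called higher only without the correction are found.

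Among the genes called higher, the smallest adjusted p-values belonged to targets of the aryl hydrocarbon receptor (AhR), a transcription factor that small molecules activate and that binds DNA at the core GCGTG. Cyp1a1 (ENSMUSG00000032315, chr9:57595211-57611107), a cytochrome P450 that oxidises aromatic compounds, had 0.226 and 0.293 CPM in the −IAA libraries against 8.28 and 10.5 CPM in the +IAA ones. Both +IAA libraries lay far above both −IAA libraries, with a log2 fold change of 5.16 ± 0.37 (adjusted p = 3.55e-05) without the correction and 5.28 ± 0.35 (adjusted p = 1.40e-05) with it. Cyp1b1 (ENSMUSG00000024087, chr17:80008966-80022532), a related enzyme, went from 0.715 and 1.46 to 9.94 and 12.3 CPM, by 3.35 ± 0.26 (adjusted p = 3.55e-05) and 3.20 ± 0.24 (adjusted p = 3.45e-05). Tiparp (ENSMUSG00000034640, chr3:65435320-65463365), an ADP-ribosyltransferase that limits AhR activity, was well expressed in both arms, at 31.2 and 29.3 CPM without IAA against 72.0 and 77.4 CPM with it. The difference of 1.30 ± 0.07 (adjusted p = 1.12e-05) on the log2 scale became 0.97 ± 0.07 (adjusted p = 2.64e-05) with the correction, just under the fold threshold. Of the 7 AhR targets tested, 3 were called higher without the correction and 2 with it, and none lower. Of all genes tested, 0.395% and 0.191% were called higher. The median log2 fold change of the list was 1.30 and 1.07, against −0.04 and 0.01 over all genes tested. The other 4 members did not pass: Nqo1, a quinone reductase, had 0.18 ± 0.14 (adjusted p = 0.437, and 0.017 corrected), Aldh3a1 had −0.89 ± 0.43 (adjusted p = 0.191, and −0.70 corrected), Ahrr was below 1 CPM in all 4 libraries, and Cyp1a2 was at 0 in both −IAA libraries and at 0.189 and 0.140 CPM in the +IAA ones.

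The 200 bases upstream of the canonical start of the 3 called AhR targets are shown because this is where the core would be looked for, with each GCGTG or its complement CACGC in capitals (GRCm39, in the direction of transcription):

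Cyp1a1, chr9:57603942-57604141, + strand: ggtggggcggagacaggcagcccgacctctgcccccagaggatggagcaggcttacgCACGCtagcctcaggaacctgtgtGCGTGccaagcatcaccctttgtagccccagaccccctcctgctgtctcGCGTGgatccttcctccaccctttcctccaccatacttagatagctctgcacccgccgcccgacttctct
Cyp1b1, chr17:80022533-80022732, - strand: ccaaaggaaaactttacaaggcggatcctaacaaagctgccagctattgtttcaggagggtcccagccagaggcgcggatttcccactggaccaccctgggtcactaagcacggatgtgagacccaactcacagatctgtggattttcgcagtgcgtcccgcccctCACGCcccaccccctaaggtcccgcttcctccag
Tiparp, chr3:65435120-65435319, + strand: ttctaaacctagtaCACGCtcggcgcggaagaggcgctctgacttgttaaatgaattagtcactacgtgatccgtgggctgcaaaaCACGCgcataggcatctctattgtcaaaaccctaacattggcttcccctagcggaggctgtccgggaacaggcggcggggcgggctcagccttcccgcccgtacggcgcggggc

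They hold 3, 1 and 2 matches, and 35.7% of the 15168 windows of this length upstream of tested genes hold at least 1. The same 3 genes were higher with IAA in UTX-AID ESCs at 0 h, where BAP1 carries no tag. There Cyp1a1 was at 0 and 0.368 CPM without and 12.1 and 8.98 CPM with IAA (log2 fold change 5.80, adjusted p = 0.00126), and Cyp1b1 was at 0.232 and 0.327 CPM without and 4.09 and 3.71 CPM with it (3.79, adjusted p = 0.00322). Tiparp started from a higher level in that line, 103 and 96.8 CPM, and reached 151 and 163 CPM (0.65, adjusted p = 0.000841). The correction left these values at 5.79, 3.77 and 0.65. The effect on Cyp1a1 differed between the lines by −0.62 (BAP1-AID minus UTX-AID, adjusted p = 0.770) and that on Cyp1b1 by −0.42 (adjusted p = 0.728), neither of which passed, and the corrected differences were −0.50 and −0.57. The effect on Tiparp was larger in BAP1-AID by 0.67 (adjusted p = 9.35e-05) without the correction and by 0.33 (adjusted p = 0.0469) with it.

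Beyond the AhR targets, the genes called higher in both fits with the smallest p-values were of mixed function and rose mostly by little more than the threshold. Cpeb2, which binds the 3′ ends of mRNAs and regulates their translation, was at 2.58 and 2.85 against 6.86 and 6.75 CPM (1.33 ± 0.29, adjusted p = 0.00671, and 1.20 ± 0.24 corrected, adjusted p = 0.00775). Slc9a7, a sodium/proton exchanger of intracellular membranes, was at 3.31 and 3.06 against 7.16 and 6.43 CPM, and its change grew from 1.09 ± 0.18 (adjusted p = 0.00125) to 1.26 ± 0.19 (adjusted p = 0.00177) with the correction. In both genes the replicates lay close together, and the arms did not overlap, as the rule for naming genes required. The corrected call of Slc9a7 was lost when GC content and length were taken from the union of exons. The call of Cpeb2 was nevertheless lost in both fits without the −IAA library of replicate 1 (0.0578 and 0.0566).

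Pcdh19, which encodes a protocadherin, a cell adhesion protein of the cadherin family, was called higher in both fits. Pcdh19 was at 2.33 and 2.11 CPM without and 5.21 and 5.89 CPM with IAA (1.32 ± 0.22, adjusted p = 0.00113, and 1.15 ± 0.23 corrected, adjusted p = 0.00846). Without the +IAA or the −IAA library of replicate 2 the corrected call of Pcdh19 was lost (highest adjusted p 0.0704), and with all 24 libraries in 1 fit both calls were lost. Pcdh8 and Pcdhgb7, protocadherin genes singled out after their values were seen, were also called higher in both fits. How many protocadherins were tested, unchanged or lower was not counted, so these values describe single genes and not the family. Pcdh8 went from 2.52 and 3.08 to 5.38 and 7.61 CPM, a change of 1.21 and 1.37 corrected. For Pcdhgb7 a single library carried the difference, with 0.678 and 0.546 CPM without IAA against 9.87 and 1.34 CPM with it. Rarb, the RA receptor beta gene and itself a target of RA signalling, was called at a very low level, with estimated counts of 0 and 3 without and 17 and 24 with IAA (0 and 0.0585 against 0.322 and 0.479 CPM). Its log2 fold change was 3.68 ± 0.61 (adjusted p = 0.00111) and 3.74 ± 0.59 corrected (adjusted p = 0.00253), and the uncorrected value ran from 2.72 to 7.34 when single libraries were left out. Both calls of Rarb were lost when the 4 libraries at 0 h were fitted alone. After 3 h of RA the same gene was at 6.33 to 10.98 CPM in BAP1-AID. Lmntd2, a lamin tail domain gene, went from 0.903 and 0.898 to 2.08 and 2.22 CPM (1.25 and 1.45 corrected), and lost its corrected call without the +IAA library of replicate 2 or the −IAA library of replicate 1 (highest adjusted p 0.057). Stamos was at 0 in both −IAA libraries and had 34 estimated counts over the +IAA pair, at least 11.3-fold higher against a floor of 3 counts over the pair. DESeq2 gave Stamos no adjusted p, and its corrected call was lost when any of the 4 libraries was left out (highest adjusted p 0.0884).

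Past the fold threshold more genes were lower than higher, although by adjusted p alone more were higher. Most of the lower genes with the smallest adjusted p were expressed at several CPM in the −IAA arm. Nicn1 (ENSMUSG00000032606, chr9:108167601-108173698), which encodes nicolin-1, a subunit of the tubulin polyglutamylase complex, had 24.3 and 23.1 CPM in the −IAA libraries against 8.94 and 9.53 CPM in the +IAA ones. This was a log2 fold change of −1.36 ± 0.15 (adjusted p = 7.41e-05) and −1.25 ± 0.14 corrected (adjusted p = 0.000361). The arms were separated by far more than the gap between replicates. Prr13 (ENSMUSG00000023048, chr15:102367398-102375011), a small proline-rich protein gene, was at 9.47 and 11.01 against 3.997 and 4.17 CPM. Its change grew with the correction, from −1.32 ± 0.15 (adjusted p = 9.86e-05) to −1.65 ± 0.17 (adjusted p = 0.000164), at a GC content of 43.8%.

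Nipal3, a magnesium transporter family gene, was at 13.2 and 13.7 CPM without IAA and 5.78 and 5.15 CPM with it. The log2 fold change was −1.30 ± 0.16 (adjusted p = 0.000166) and −1.19 ± 0.15 corrected (adjusted p = 0.00066). Crebl2, a small CREB-like transcription factor gene, was at 9.90 and 9.11 against 4.66 and 4.05 CPM, with −1.12 in both fits. Ank3, which encodes the membrane adaptor ankyrin-G, was at 7.36 and 6.75 against 3.49 and 2.60 CPM, with −1.21 and −1.36 corrected. The remaining named genes lay lower still. Bnip5 went from 6.21 and 6.19 to 2.37 and 2.88 CPM, Cnppd1 from 5.02 and 5.83 to 1.76 and 2.24 CPM, and Arl4d, a small GTPase gene, from 4.37 and 3.75 to 1.44 and 1.72 CPM. Their corrected log2 fold changes were −1.11, −1.32 and −1.13. The arms did not overlap in any of these genes, as the rule for naming them required. The corrected call of Bnip5 was lost without the +IAA library of replicate 1 (log2 fold change −0.98), and the uncorrected call of Ank3 without the +IAA library of replicate 2 (−0.999), while Nicn1, Prr13, Nipal3, Arl4d, Crebl2 and Cnppd1 kept both calls with each of the 4 libraries left out.

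**Figure D3:**
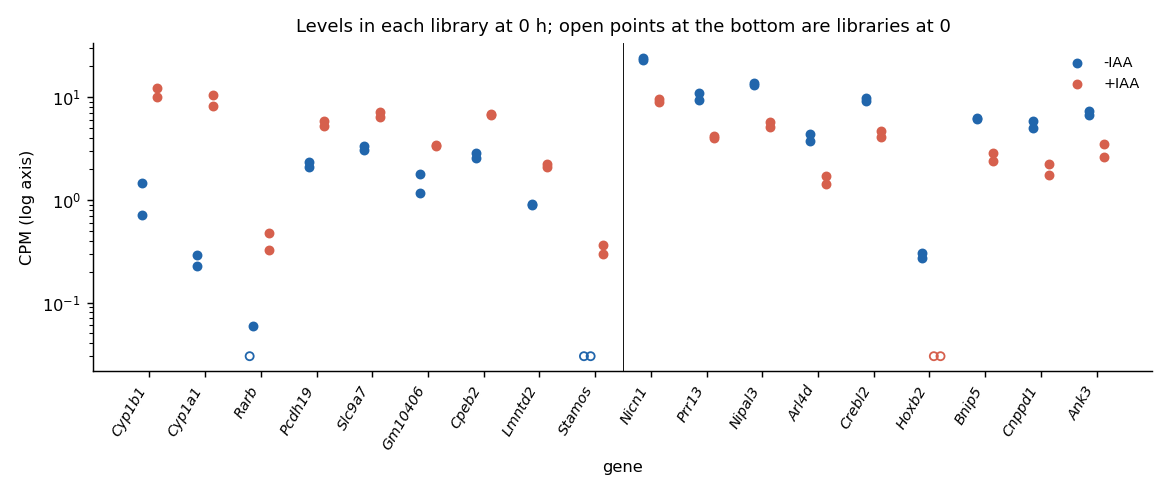
CPM of 9 named genes called higher (left) and 9 called lower (right) in both fits, 1 point per library on a log axis, −IAA in blue and +IAA in red, with libraries at 0 drawn as open points at the bottom. The arms do not overlap in any of these genes, as their choice required. Rarb, Stamos and Hoxb2 lie below 0.5 CPM in every library.

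Hoxb2, a Hox gene that is silent in ESCs and carries Polycomb marks, was called lower in both fits at the limit of detection. It had 16 and 14 estimated counts in the −IAA libraries (0.301 and 0.273 CPM) and 0 in both +IAA libraries, at least 10.1-fold lower against a floor of 3 counts over the pair. An estimated count of 0 can be a failed estimate at such a level, and 14 of the 83 genes called in both fits were at 0 in all libraries of an arm. In UTX-AID ESCs at 0 h Hoxb2 was at 0 in both −IAA libraries and at 0.285 and 0 CPM in the +IAA ones. After 3 h of RA it was at 9.98 and 8.64 CPM without and 8.45 and 7.23 CPM with IAA (log2 fold change −0.25, adjusted p = 0.249, and −0.04 corrected). Of the 34 developmental regulators with bivalent marks that were tested, Hoxb2 was the only gene called in either fit (2.94%). Of all genes tested, 1.15% were called without and 0.653% with the correction. The median of the list was 0.10 and 0.17 corrected, and many of its members lay below 1 CPM.

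Among the genes called lower in both fits were enzymes of metabolism and genes of interferon and immune signalling, groups that were put together after the values were seen and are given as a description. How many genes of these kinds were tested, unchanged or higher was not counted. No share can thus be set beside the 0.752% and 0.461% (corrected) of all genes called lower. The 7 enzymes named were Acox3, Gstt3, Aldh1b1, Pdk2, Pfkfb4, Sirt4 and Suox. Acox3, a peroxisomal acyl-CoA oxidase, was at 7.83 and 5.78 CPM without and 2.80 and 3.12 CPM with IAA (−1.20 and −1.06 corrected). Gstt3, a glutathione transferase, went from 4.67 and 3.14 to 1.44 and 1.42 CPM (−1.45 and −1.26), and Sirt4, a mitochondrial sirtuin, from 1.43 and 1.80 to 0.606 and 0.599 CPM (−1.42 and −1.22). In the second group, Ifnlr1, a subunit of the receptor for lambda interferons, was at 2.18 and 2.30 against 0.492 and 0.459 CPM (−2.23 ± 0.41, adjusted p = 0.00234, and −2.10 ± 0.40 corrected, adjusted p = 0.00674). Oas3, a sensor of double-stranded RNA that interferon induces, was at 1.30 and 1.72 against 0.398 and 0.260 CPM (−2.19 and −2.05). Bcl3, a coactivator of NF-κB, was at 2.26 and 2.44 against 0.739 and 1.02 CPM (−1.42 and −1.25). In BAP1-AID after RA the group was uneven. Ifnlr1 had −1.98 at 3 h and −2.35 at 6 h (adjusted p = 0.00888 and 0.00245), and passed with the correction as well. Oas3 had −1.23 and −1.67 (adjusted p = 0.132 and 0.0501), Bcl3 −0.40 and −0.79 (0.213 and 0.0224), and Cmklr1, a chemoattractant receptor gene, −0.86 and −0.89 (0.0456 and 0.0431), and none of these passed with the correction. Oas1b, a relative of Oas3 that was at 0 in both +IAA libraries at 0 h, had −0.24 and −0.18 (0.892 and 0.94). In UTX-AID at 0 h none of the 5 genes passed, where 3 of all genes tested were called without the correction.

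Solute carriers, a large family of membrane transporters, held 6 called genes without the correction (1 higher, 5 lower of 266 tested, beside 0.395% and 0.752% of all genes) and 5 with it. Slc2a5, the fructose transporter, was at 2.16 and 2.77 CPM without and 0.758 and 0.759 CPM with IAA (−1.70 and −1.54). Slc50a1, a sugar transporter, went from 2.16 and 2.05 to 0.474 and 0.859 CPM (−1.66 and −1.43), and Slc18b1, a vesicular polyamine transporter, from 5.51 and 5.89 to 2.59 and 3.04 CPM (−1.02 and −1.03). Slc47a2, a drug and cation exporter, was at 0.809 and 0.117 CPM without IAA and listed at 0 with it. Slc25a35, a mitochondrial carrier, was called without the correction alone (−1.21, adjusted p = 0.0418, and −1.02, adjusted p = 0.106). The corrected calls were lost for Slc2a5 in 3 of 4 cases when a library was left out (all but the −IAA library of replicate 1), for Slc47a2 in 3 (all but the −IAA library of replicate 2), and for Slc18b1 and Slc50a1 in all 4, with adjusted p-values of up to 0.0701, 0.123, 0.121 and 0.279. The uncorrected calls were lost in 3 of 4 cases for Slc47a2, Slc50a1 and Slc25a35 and in 2 for Slc18b1, and in none for Slc2a5. DESeq2 did not call Slc47a2 in either fit. The uncorrected call of Slc18b1 was also lost with all 24 libraries in 1 fit or with the 4 alone, and that of Slc25a35 with the 4 alone. The median of the family was −0.07 and −0.06 corrected.

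The genes called higher only without the correction had a lower median GC content (41.5%) than those called higher in both fits (50.5%). Among the lower genes the GC contents overlapped. Morn4, which lost the call, had 53.7%, and Arl4d, which kept it, had 55.7%. Tasor, a subunit of the HUSH silencing complex, was at 45.4 and 45.7 CPM without IAA and 98.3 and 99.1 CPM with it. The log2 fold change of 1.12 ± 0.11 (adjusted p = 5.20e-05) became 0.54 ± 0.11 (adjusted p = 0.0108) when the trend was removed. Rc3h2, which encodes the RNA-binding ubiquitin ligase roquin-2, was at 26.7 and 23.8 against 58.8 and 56.5 CPM, with 1.192 ± 0.14 (adjusted p = 0.000112) and 0.56 ± 0.15 corrected (adjusted p = 0.0298). Lnpep, a membrane aminopeptidase, was at 20.1 and 16.7 against 36.5 and 37.4 CPM, and its change of 1.00 dropped to 0.38 (adjusted p = 0.053). The arms of these 3 genes did not overlap, as the naming rule required, and their replicates lay close together. On the lower side, Ciz1, a nuclear matrix protein with a role in DNA replication, was at 9.65 and 10.97 against 4.79 and 4.43 CPM, with −1.16 ± 0.14 (adjusted p = 0.000113) and −0.97 ± 0.13 corrected (adjusted p = 0.00117). Morn4 had −1.14 and −0.94. Snx15, a sorting nexin, was at 12.8 and 12.7 against 6.06 and 6.35 CPM (−1.04 and −0.82) and Lipe, the hormone-sensitive lipase, at 9.15 and 9.93 against 4.30 and 5.05 CPM (−1.03 and −0.86). All 4 lower genes kept an adjusted p under the threshold of 0.05 with the correction, as did Tasor and Rc3h2, while Lnpep did not. Without single libraries the uncorrected calls of Lnpep (−IAA replicate 2, 0.87), Snx15 (+IAA replicate 1, −0.99) and Lipe (+IAA replicate 1 or −IAA replicate 2, −0.90 at the weakest) were lost.

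Stretches of 90 coding bases show the composition of higher genes (Tasor and Rc3h2) and lower genes (Ciz1 and Morn4) that lost the call. G and C are in capitals (GRCm39, coding strand). Each was taken from the longest coding exon where its GC content was closest to that of the whole transcript:

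Tasor, chr14:27193785-27193874, + strand: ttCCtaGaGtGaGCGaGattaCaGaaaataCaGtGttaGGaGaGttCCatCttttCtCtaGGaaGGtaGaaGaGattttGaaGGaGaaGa
Rc3h2, chr2:37272835-37272924, - strand: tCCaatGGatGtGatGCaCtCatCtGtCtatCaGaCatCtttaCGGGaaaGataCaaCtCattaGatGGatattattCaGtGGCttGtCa
Ciz1, chr2:32260915-32261004, + strand: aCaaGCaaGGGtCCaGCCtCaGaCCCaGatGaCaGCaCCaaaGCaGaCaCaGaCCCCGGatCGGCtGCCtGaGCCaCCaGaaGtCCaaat
Morn4, chr19:42064594-42064683, - strand: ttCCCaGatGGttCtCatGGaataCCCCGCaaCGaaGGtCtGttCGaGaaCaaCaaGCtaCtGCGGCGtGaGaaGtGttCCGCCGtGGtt

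The stretches of Tasor and Rc3h2 hold 38.9% G and C, that of Morn4 53.3% and that of Ciz1 57.8%. Their whole transcripts have 39.2%, 39.3%, 53.7% and 57.6%, and lengths of 7633, 10360, 1897 and 3141 bases.

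Other genes were called only with the correction. On the lower side these were genes of low GC content. Entpd7, a nucleoside triphosphate diphosphohydrolase, was at 15.8 and 16.6 CPM without and 7.84 and 9.35 CPM with IAA (−0.92, and −1.05 ± 0.15 corrected, adjusted p = 0.00139). Tstd3 was at 6.38 and 5.13 against 2.99 and 3.14 CPM (−0.91, and −1.17 corrected, adjusted p = 0.00171). Pigc, which acts in the first step of glycosylphosphatidylinositol anchor synthesis, had −0.66 and −1.03 corrected (adjusted p = 0.0075), and Tmem45a had −0.72 and −1.07 (adjusted p = 0.0116). On the higher side, Ribc1 was at 1.77 and 1.54 against 3.30 and 3.22 CPM (0.97, and 1.15 corrected, adjusted p = 0.00795). Fhdc1, a formin, had 0.96 and 1.04 (adjusted p = 0.00992), Chst7, a sulfotransferase, had 0.97 and 1.17 (adjusted p = 0.0332), and the uncharacterised 9430069I07Rik had 0.95 and 1.01 (adjusted p = 0.0202). Pigc, Tmem45a, Chst7 and 9430069I07Rik each lost the call in 3 of the 4 cases when a library was left out, with adjusted p-values of up to 0.059, 0.0909, 0.284 and 0.118. The exceptions were the −IAA library of replicate 2 for Pigc and Tmem45a, the +IAA library of replicate 1 for Chst7 and the −IAA library of replicate 1 for 9430069I07Rik. Fhdc1 lost the call in 2 cases, Entpd7 and Ribc1 in 1 each (without the +IAA library of replicate 1) and Tstd3 in none. With all 24 libraries in 1 fit Fhdc1, Chst7 and 9430069I07Rik were not called. Other forms of the correction (GC content alone, length alone, splines with 3 degrees of freedom or the union of exons) also ended calls, at least 1 of them for each of these genes but Ribc1 and Chst7.

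None of the 12 tested members of PR-DUB and its partners was called in either fit, and the median of the list was −0.000515 and 0.04 corrected. Without the correction 2 of them (16.7%) passed by adjusted p alone, both higher, beside 11.8% of all genes. Ogt, the enzyme that attaches N-acetylglucosamine to nuclear proteins, was at 161 and 137 CPM without and 238 and 234 CPM with IAA (0.66 ± 0.08, adjusted p = 0.000112), and Asxl2, an activating subunit of PR-DUB, was at 79.0 and 85.5 against 123 and 116 CPM (0.54 ± 0.08, adjusted p = 0.000626). With the correction the values were 0.29 (adjusted p = 0.0593) and 0.13 (adjusted p = 0.159), and neither passed. Kdm1b, a histone demethylase, passed only with it, at −0.49 ± 0.11 (adjusted p = 0.0162) against −0.04. For the remaining partners, Asxl1, Asxl3, Mbd5, Mbd6, Foxk1, Foxk2, Hcfc1 and Ube2o, the uncorrected values lay between −0.14 and 0.42 and the corrected ones between −0.08 and 0.20. Among 7 other H2A deubiquitinases, Mysm1 and Brcc3 passed by adjusted p alone without the correction (0.88 and 0.70) and not with it (0.33 and 0.08).

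Transcripts of the complexes that write the Polycomb marks differed by small amounts. In PRC2, which methylates histone H3, 5 of 13 tested members (38.5%) passed by adjusted p alone as higher and 2 (15.4%) as lower without the correction, beside 11.8% and 6.66% of all genes. With it 4 (30.8%) and 2 passed, beside 5.6% and 4.88%, and the median was 0.20 and 0.18. Ezh2, the main methyltransferase of ESCs, was at 139 and 154 CPM without and 198 and 202 CPM with IAA (0.45 ± 0.08, adjusted p = 0.00264, and 0.36 ± 0.06 corrected, adjusted p = 0.00388). Ezh1, its paralog, moved the other way, from 26.2 and 24.8 to 18.7 and 15.1 CPM (−0.59, adjusted p = 0.00183, and −0.49 corrected, adjusted p = 0.0107). Mtf2, a subunit that brings PRC2 to CpG islands, had 0.79 and 0.29 corrected and passed in both fits. In PRC1, which ubiquitinates H2A, 6 of 26 (23.1%) were higher and 1 (3.85%) lower without the correction. With it 2 (7.69%) and 1 passed, shares near those of all genes. Bmi1 had 0.75 and 0.38 (corrected adjusted p = 0.0451), Kdm2b, the subunit that binds CpG islands, had −0.40 and −0.30 (corrected adjusted p = 0.00824), and the catalytic Rnf2 had 0.57 and 0.17 (corrected adjusted p = 0.0895). None of these genes was called, since all lay within the fold threshold.

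Of the 26 genes of mitosis tested, 16 (61.5%) were higher with IAA by adjusted p alone without the correction and 11 (42.3%) with it, beside 11.8% and 5.6% of all genes. None was lower in either fit, none was called, and 19 without and 24 with the correction had a value above 0. The median of the list dropped from 0.36 to 0.16 with the correction, beside 0.01 for all genes, and was 0.17 at 3 h and 0.21 at 6 h corrected. Top2a, the topoisomerase that untangles chromosomes, was at 345 and 361 CPM without and 628 and 630 CPM with IAA (0.83 ± 0.06, adjusted p = 3.55e-05, and 0.49 ± 0.08 corrected, adjusted p = 0.00241). Kif23, a kinesin of cell division, was at 75.4 and 83.6 against 116 and 119 CPM (0.57, and 0.48 corrected, adjusted p = 0.00153), and Cenpf, a kinetochore protein, at 33.8 and 38.2 against 64.3 and 62.4 CPM (0.81, and 0.35 corrected, adjusted p = 0.00392). The median GC content of the list was 44.4%, below that of all genes tested. Cdc20 and Aurkb, regulators of the exit from mitosis and of chromosome attachment, did not pass, with −0.08 and −0.14 and corrected values of 0.14 and 0.04.

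The list of 375 tested Zfp genes, mostly KRAB zinc finger repressors, had a median GC content of 44.1%. Without the correction 113 (30.1%) were higher and 18 (4.8%) lower by adjusted p alone, beside 11.8% and 6.66% of all genes, with a median of 0.20. With it 32 (8.58%) of 373 were higher and 21 (5.63%) lower, beside 5.6% and 4.88%, with a median of 0.02. Zfp738 was at 3.56 and 3.90 CPM without and 8.98 and 10.01 CPM with IAA, and its change of 1.35 (adjusted p = 0.000182) dropped to 0.67 (adjusted p = 0.0234). Zfp800 had 1.25 (adjusted p = 0.000289) and 0.83 (adjusted p = 0.00692). Zfp94 was the only member called in both fits, from 2.45 and 2.36 to 0.966 and 0.919 CPM (−1.35 and −1.23), and its corrected call was lost in 3 of 4 cases when a library was left out, all but the −IAA library of replicate 2 (highest adjusted p 0.0918).

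Of the 21 pluripotency genes tested, 6 (28.6%) were lower by adjusted p alone and none higher without the correction, beside 6.66% of all genes lower. With it 1 of 20 (5%) was lower, beside 4.88%. The medians were −0.18 and −0.08. Nanog, a core factor of the pluripotent state, was the member that passed in both fits, at 130 and 107 CPM without and 82.8 and 74.8 CPM with IAA (−0.58 ± 0.10, adjusted p = 0.00167, and −0.67 ± 0.10 corrected, adjusted p = 0.00157). Pou5f1, at 1419 and 1360 against 1228 and 1218 CPM, had −0.18 (adjusted p = 0.058) and 0.04 corrected, and Sox2, at 472 and 499 against 495 and 500 CPM, had 0.03 and 0.17 (adjusted p = 0.843 and 0.237). Among the immediate early genes, which respond to growth signals, 7 of 26 (26.9%) were lower by adjusted p alone without the correction and 3 (11.5%) with it, beside the same 6.66% and 4.88%, and none was higher. The 3 were Nr4a1 (8.90 and 9.27 against 5.04 and 5.13 CPM, −0.84 and −0.63), Junb (−0.71 and −0.53) and Jund (−0.49 and −0.38), with corrected adjusted p-values of 0.0151, 0.0392 and 0.0175.

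The median of the cholesterol synthesis list was −0.14 in both fits. Of its 23 genes, 5 (21.7%) were lower by adjusted p alone without and 6 (26.1%) with the correction, beside 6.66% and 4.88% of all genes, and none was higher in either. Pmvk, phosphomevalonate kinase, was at 21.6 and 20.5 CPM without and 12.5 and 11.7 CPM with IAA (−0.80 ± 0.12, adjusted p = 0.000478, and −0.56 ± 0.11 corrected, adjusted p = 0.00805). Dhcr7, the last reductase of the pathway, was at 56.7 and 61.3 against 41.9 and 43.2 CPM (−0.47, and −0.29 corrected, adjusted p = 0.0162), and Fdps, farnesyl diphosphate synthase, had −0.51 and −0.31 (corrected adjusted p = 0.0118). Cyp51, Hsd17b7 and Sc5d passed with the correction alone.

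For several lists the sign of the median depended on the correction. Ribosomal protein genes (84 tested) had a median of −0.15 without and 0.03 with it, glycolysis and hypoxia genes (24 tested) −0.13 and 0.01, p53 targets (18 tested) −0.08 and 0.08, heat shock genes (12 tested) −0.13 and 0.01, and germline genes (23 tested) 0.19 and −0.01. Complex I subunits (36 tested) went from −0.15 to −0.01. Dazl, a germ cell RNA-binding protein and the single germline call, was at 3.76 and 3.90 CPM without and 9.60 and 7.93 CPM with IAA. It had 1.193 ± 0.14 (adjusted p = 0.000116), and 0.69 ± 0.14 corrected (adjusted p = 0.0093) at a GC content of 37.0%. The lists of DNA replication, the unfolded protein response, ATF4 targets, MLL3/4 COMPASS, replication-dependent histones and two-cell-like genes held no called gene in either fit. In these, and in the olfactory receptors with 2 of 354 tested, between 0 and 5 members per direction passed by adjusted p alone. The shares higher without and with the correction were 13.8% and 17.2% for DNA replication and 25% and 12.5% for the unfolded protein response. They were 20% and 10% for MLL3/4 COMPASS and 4.55% and 0% for ATF4 targets, beside 11.8% and 5.6% of all genes. The shares lower were 10.3% and 6.9% for DNA replication and 9.09% and 4.55% for ATF4 targets, beside 6.66% and 4.88%. All other shares were 0%.

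**Figure D4:**
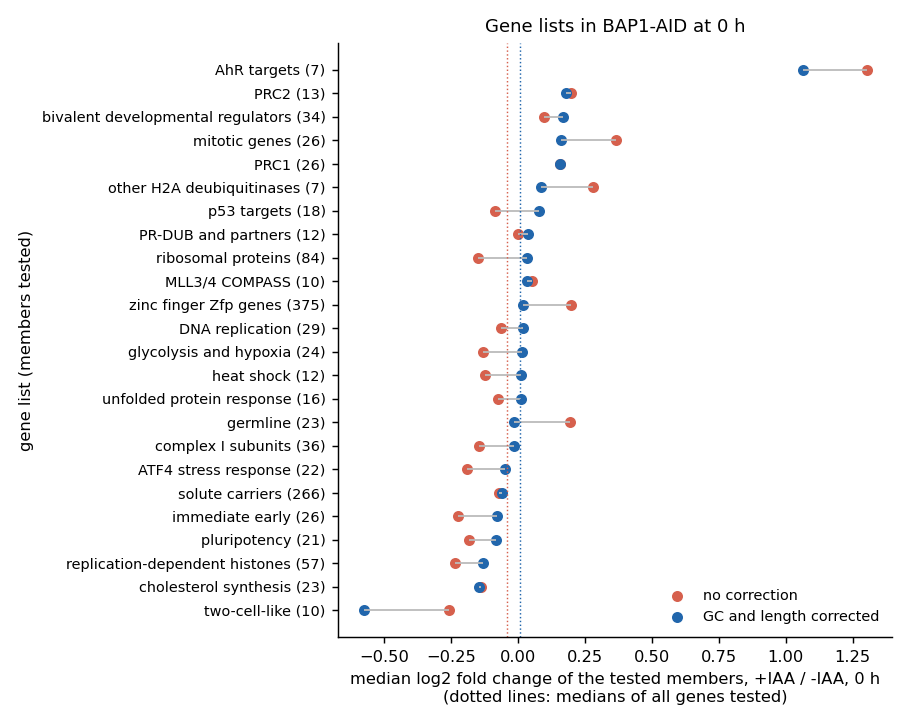
Median log2 fold change of the tested members of each gene list between the arms at 0 h, without the correction (red) and with it (blue), joined by a line, with the number tested in parentheses and the medians of all genes as dotted lines. AhR targets stand apart at 1.30 and 1.07, and mitotic, Zfp and germline genes move toward 0 with the correction while cholesterol synthesis and PRC1 stay in place.

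The RA response genes Cyp26a1 and Hoxb1, and the study's negative controls Gata4, Wnt1 and Wnt10b, were low before RA. Cyp26a1, which degrades RA, was at 1.20 and 1.07 against 0.852 and 0.839 CPM (−0.43, adjusted p = 0.122, and −0.22, adjusted p = 0.529). Hoxb1 was at 0 in 3 of the 4 libraries and at 0.152 CPM in the fourth, a +IAA library. Gata4 was at 1.11 and 1.54 against 1.89 and 1.34 CPM (0.29, adjusted p = 0.678, and 0.45 corrected). None of these differences passed. Wnt1 and Wnt10b were too low to be tested.

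A cluster of near-identical genes on chromosome 14 was higher as a block without the correction, a region that was chosen after its values were seen. It holds 19 tested genes, nearly all predicted gene models, in chr14:15154668-18897878, with transcript GC contents from 39.7% to 47.6%. All 19 had a log2 fold change above 0, with a median of 1.02, beside 7076 of all 15695 genes tested above 0. The region held 9 of the 13 genes called higher on the chromosome, beside 0.395% of all genes called higher. With the correction 16 of 19 were above 0, beside 7813 of all 15168 genes tested, and the median was 0.69. Gm10406 and Gm3667 were called, beside 0.191% of all genes called higher. Gm10406 was at 1.17 and 1.78 CPM without and 3.45 and 3.38 CPM with IAA (1.21 and 1.22 corrected, adjusted p = 0.00453 and 0.00882, its corrected call lost in all leave-out cases but the −IAA library of replicate 2, up to 0.0802, and its uncorrected one without the −IAA library of replicate 1, 0.94), and Gm3667 was at 1.79 and 0.976 against 2.88 and 3.81 CPM (1.27 and 1.03). The uncorrected medians of the 19 genes in BAP1-AID were 0.41 after 3 h and 0.37 after 6 h, and 0.05 in UTX-AID at 0 h. Reads of such copies can be split between them in counting, so the genes cannot be told apart with certainty and are not 19 separate observations.

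The libraries taken after RA (3 h and 6 h) give a look at the same genes in other cultures of the line. Of the 62 genes called lower in both fits at 0 h, 56 were below 0 at 3 h and 57 at 6 h, and 18 and 15 were called lower there, where 0.892% and 1.61% of all genes were called in either direction. With the correction 53 and 55 were below 0 and 11 and 9 were called, beside 0.501% and 0.547% of all genes. Their median log2 fold change was −1.65 at 0 h, −0.71 at 3 h and −0.85 at 6 h without the correction, and −1.54, −0.71 and −0.69 with it. The 0 h values were set by the choice of genes on those libraries. Nipal3 had −1.37 at 3 h and −1.44 at 6 h, Nicn1 −1.13 and −1.04, and Prr13 −1.09 and −1.03. Nicn1, for example, had 22.9 and 21.995 CPM without and 11.01 and 9.54 CPM with IAA at 3 h, and 18.4 and 23.6 against 11.6 and 8.76 CPM at 6 h. Of the 21 genes called higher in both fits, 15 were above 0 at 3 h and 18 at 6 h, and 2 were called at each time without the correction, Cyp1a1 and Cyp1b1, joined by Pcdh8 at 6 h with it.

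A test of the 0 h effect against the mean of the 3 h and 6 h effects called no gene in either fit. Without the correction 1352 genes had an unadjusted p below 0.05 and the smallest adjusted p was 0.154, and with it 1231 and 0.0959; DESeq2 also called none. Without the +IAA library of replicate 1, 2 genes were called lower. No gene was thus shown to respond differently before RA than after it, which does not show that the responses were alike. The later libraries also differ from those at 0 h in the time since IAA was added and in the absence of leukemia inhibitory factor.

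In UTX-AID ESCs at 0 h the genes called lower in BAP1-AID were scattered around 0. Of the 62, 34 were below 0, none passed by adjusted p, and their median was −0.03. Calls were rare there for any gene, with 3 of all genes tested called without the correction. Of the 20 genes called higher that were tested there, 14 were above 0, with a median of 0.28, and Cyp1a1 and Cyp1b1 were the 2 called. The difference of the IAA effects between the lines, tested with all 24 libraries and therefore on the same 4 BAP1-AID libraries, was called for 98 genes as higher in BAP1-AID (0.583% of 16816) and 118 as lower (0.702%), 1.28% in all. With the correction these were 28 (0.173% of 16208) and 69 (0.426%), 0.598% in all. Without the −IAA library of replicate 2 the higher count was 174. The effect in BAP1-AID minus that in UTX-AID was −1.43 for Nicn1 (adjusted p = 3.90e-05) and −1.51 for Prr13 (adjusted p = 0.000583), and −1.32 and −1.84 with the correction (adjusted p = 0.000578 and 0.00118). The lines are separate clones, whose −IAA levels already differed, as for Nicn1 at 16.9 and 14.6 CPM in UTX-AID against 24.3 and 23.1 CPM in BAP1-AID.

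**Figure D5:**
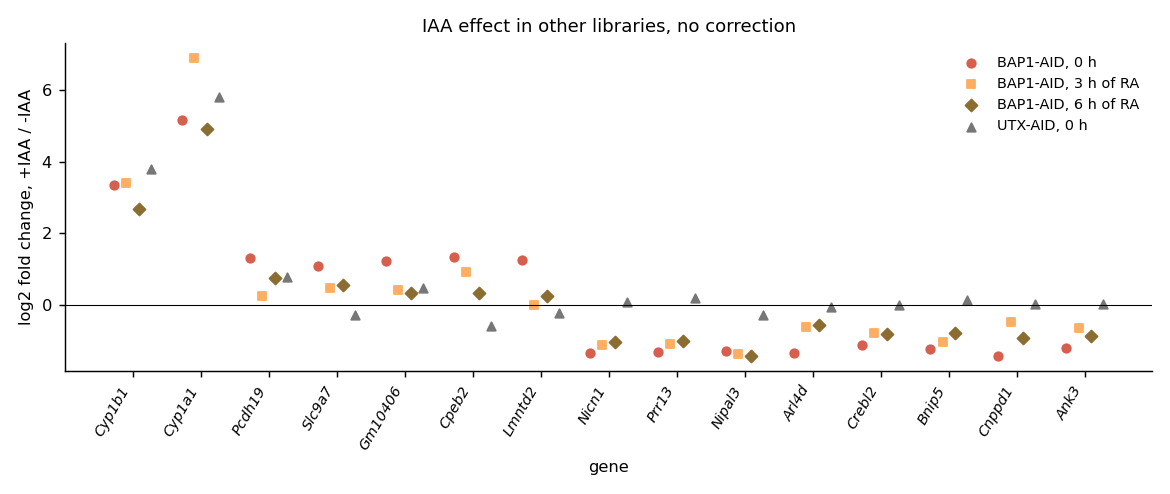
Log2 fold change between +IAA and −IAA libraries without the correction for the named genes called in both fits and above 0.1 CPM in both arms, in BAP1-AID at 0 h, 3 h and 6 h of RA and in UTX-AID at 0 h. Cyp1a1 and Cyp1b1 are raised in all 4 comparisons, and the lower genes from Nicn1 to Ank3 lie below 0 at each time in BAP1-AID but within 0.3 of 0 in UTX-AID.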

How the data were processed

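RNA was selected with oligo-dT beads and sequenced. Per the labels and the submitters' processing notes, the authors used HISAT2 2.2.1, SAMtools 1.19, StringTie 2.2.1 and deepTools 3.5.4 with the mm39 build, and deposited estimated counts per gene symbol, all of them whole numbers. The annotation, strand setting and filters were not given in the sources used here. The table held 26264 genes in 24 libraries. The 12 BAP1-AID libraries were fitted together with 1 coefficient for each of 6 groups (edgeR 4.0.16 in R 4.3.3, TMM scaling, filterByExpr with minimum counts of 10 and 15, quasi-likelihood test, Benjamini-Hochberg adjustment), so the 0 h arms shared an estimate of the spread with the other groups. The biological coefficient of variation was 11.6%, and the TMM factors lay between 0.980 and 1.03.

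For the correction, GC content and length came from the canonical transcript of each gene in GENCODE vM39 (GRCm39), matched by symbol for 23897 genes (91.0%) and for 96.6% of those tested. In each library, log2 CPM of genes with a mean log2 CPM above 1 was fitted on natural splines (5 degrees of freedom) of GC content and log2 length, and the fitted trend entered edgeR as an offset. A real effect that follows GC content or length is removed by it too. The difference between the lines was fitted on all 24 libraries. Genes were called at an adjusted p below 0.05 and an absolute log2 fold change above 1.

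Among called genes whose arms did not overlap, those named were the 10 per direction with the smallest adjusted p called in both fits and the 4 per direction called in 1 fit alone. All called list members, AhR targets, PR-DUB partners and the RA response and negative control genes the study names were added. Uncalled list members and other genes given as examples were chosen after their values were seen. A few genes that the rule selects are not reported here. The members and lists were chosen with earlier results of these data known. At the depth of these libraries 3 counts equal 0.0569 to 0.0602 CPM, and a floor set in this way covers counting error only. The scripts were tested on simulated data, and pandas 2.3.3, scipy 1.17.1, pysam 0.24.0, samtools 1.23.1 and matplotlib 3.10.9 were used for tables, correlations, sequences and plots. Alternatives were DESeq2 1.42.0, other scalings, filters, sample sets and corrections, a replicate block and leaving out each library.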

Additional observations from a re-analysis of the deposited data

Results flagged for a closer look

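The IAA effect at 0 h differed between the lines, tested as the effect in BAP1-AID minus that in UTX-AID with edgeR, for 98 genes higher and 118 lower without the correction, and for 28 higher and 69 lower with it. Among the genes named by rule and called in this test in both fits, the difference was above 0 for Slc9a7 (1.381), Cpeb2 (1.929) and Lmntd2 (1.484) on the log2 scale. It was below 0 for Nicn1 (−1.433), Prr13 (−1.506), Arl4d (−1.281), Crebl2 (−1.112), Bnip5 (−1.355), Cnppd1 (−1.459), Ank3 (−1.217), Snx15 (−1.272), Ciz1 (−1.291) and Zfp94 (−1.285). These values are without the correction. Of the other named genes, Tasor (1.15), Rc3h2 (1.28), Lnpep (1.00), Dazl (1.18), Zfp738 (1.41) and Zfp800 (1.04) were called above 0 without the correction alone, where their corrected differences lay between 0.34 and 0.68. Nipal3 (−1.01), Morn4 (−1.19), Lipe (−1.03), Slc2a5 (−1.58), Slc50a1 (−1.69) and Slc25a35 (−1.58) were called below 0 without the correction alone, as was Stamos, at 0 in an arm, above 0. For Hoxb2 (−12.76) and Slc47a2 (−7.198) an arm was at 0, so the fitted size depends on the prior count and is no measure of the difference. Entpd7 was called below 0 with the correction alone (−1.04, and −0.90 without it). Some genes grouped after their values were seen were also called in both fits. These were Ifnlr1 (−2.04), Oas3 (−2.22), Suox (−1.98) and Gstt3 (−1.64) below 0 and Pcdhgb7 (3.00) above 0, given without the correction. The genes given here were named from their calls, or grouped after their values were seen, in the BAP1-AID libraries at 0 h. The difference between the lines uses those same libraries, so for these genes its direction and part of its size were set by the choice. Their values are therefore no separate test of the named genes. The lines are separate clones, and a difference between them can arise in the UTX-AID libraries as well as in the BAP1-AID ones. The part of the clones in these differences was not tested.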

How the results depend on the processing

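Counts are given as higher and lower calls. Without the correction they moved past 1.5 times to 1850 and 1046 by adjusted p alone and to 179 lower with all 24 libraries in 1 fit, and with it to 849 and 740 by adjusted p alone, to 120 lower with all 24 libraries, and to 57 and 119 when length alone was corrected. The difference between the lines had 157 higher calls by DESeq2, and 28 and 69 with the correction. When each library was left out in turn, the ranges were 59 to 106 higher and 83 to 117 lower without the correction, 20 to 43 and 31 to 65 with it, 79 to 174 and 83 to 121 for the difference between the lines, and 0 to 0 and 0 to 2 for 0 h against later times. DESeq2 (78 and 115; corrected 35 and 74), RLE factors (66 and 114; 29 and 70), no filter (59 and 108; 32 and 73) and the 4 libraries alone (79 and 103; 34 and 74) stayed within 1.5 times, as did genes with a GC value only (59 and 116), an alternative chosen after seeing the data. With the replicate block the calls were 64 and 109 without the correction, 28 and 72 with it, 96 and 120 for the difference between the lines, and 0 and 0 against later times. Same-numbered libraries share only a number: the correlation of their deviations was 0.0029 for the 0 h arms and −0.049 to 0.256 over 15 pairs of groups.

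Values near 0 changed sign. Uncorrected, Asxl1 became 0.017 with all 24 libraries, 0.00033 with the replicate block, 0.0079 by DESeq2, 0.016 in the 4 libraries alone and 0.0079 with RLE factors. Corrected for length alone, Bap1 was −0.19, Asxl1 −0.17, Mbd6 −0.11, Foxk2 −0.00422, Hcfc1 −0.16 and Ube2o −0.19. Corrected for GC content alone, Nqo1 was −0.0401, Asxl3 0.11 and Foxk1 0.039. With the union of exons, Asxl3 was 0.056, Mbd5 −0.0146 and Foxk1 0.014, and with the replicate block Asxl3 was 0.015. With libraries left out, uncorrected values ran from −0.098 to 0.099 for Asxl1, −0.16 to 0.85 for Asxl3, −0.082 to 0.089 for Hcfc1, 0 to 5.99 for Hoxb1, −0.13 to 0.055 for Kdm1b, −0.0702 to 0.0081 for Mbd6, −0.00767 to 0.39 for Nqo1 and −0.00607 to 0.075 for Sox2. Corrected values ran from −0.028 to 0.088 for Asxl1, −0.42 to 0.49 for Asxl3, −0.000257 to 0.077 for Bap1, 0 to 6.12 for Hoxb1, −0.046 to 0.061 for Mbd5, −0.0103 to 0.13 for Mbd6, −0.17 to 0.23 for Nqo1 and −0.014 to 0.089 for Ube2o. The causes were not tested. Depth limits the genes near 0: of the 83 genes called in both fits, 14 were at 0 in all libraries of an arm.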
